A study of Mus musculus with 28 samples.

Results

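The genes described here are 45 genes of mitosis and the spindle, listed by name: mitotic kinases and cyclins, spindle checkpoint and anaphase regulators, centromere and kinetochore proteins, spindle motors, cytokinesis proteins, condensin and chromosome proteins, and the transcription factor gene Foxm1. A gene was measured where an array probe set (a group of probes that report 1 transcript) carried its symbol alone, and the probe set with the highest mean was taken where there was more than 1. This held for 44 of the 45, out of 19938 genes measured in all. Ccnb1 (cyclin B1) had no such probe set and was not analysed, and Sgol1 is given under its current symbol, Sgo1.

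The cells were CD4+ T cells of BwTRP1 Rag1-/- mice, whose transgenic receptor recognises the pigment cell protein TRP1. They were cultured for 7 days after stimulation with peptide-loaded spleen cells, either with IL-12 and antibody to IL-4 (Th1) or with IL-1, IL-6, IL-21, TGFβ2, antibodies to IL-2, IL-4 and IFN-γ, and IL-23 (Th17), and both cultures later received IL-2. Cells were taken on the day of transfer (day 0), or on day 5 or day 15 after transfer into B6.PL (Thy1.1+) mice given 5 Gy of radiation, and were then recovered from pooled spleens and inguinal lymph nodes by CD4 enrichment and a sort for Thy1.2. Each sample was divided, and 1 part received a restimulation of 2 h through CD3 and CD28, given as antibodies. The 28 arrays comprised 1 per group on day 0 and 3 per group on day 5, for Th1 and Th17 cells with and without restimulation, and on day 15, 2 per Th1 group and 4 per Th17 group.

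Cells express most of these genes in a wave that starts in G2 and ends as the cell divides. Cdk1 with its cyclins starts mitosis, Plk1 and the Aurora kinases build and correct the spindle, the checkpoint proteins hold anaphase until all chromosomes are attached, and Cdc20 then directs the anaphase-promoting complex against securin and the cyclins. Resting T cells hold little of these transcripts, and activated T cells make them as they divide. In RNA from a whole population, fewer dividing cells and less RNA per dividing cell cannot be told apart.

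All values are deposited log2 expression values, so a difference of 1 is a 2-fold change. Differences were tested with limma across all 19938 genes on the 24 arrays of days 5 and 15, and genes with a Benjamini-Hochberg adjusted p below 0.05 are said to be called. The T cell genes Cd3e and Cd4 were at 12.78 or more and 11.90 or more on every array, and the mean of 6 T cell markers lay between 12.04 and 12.43. A list of 8 measured erythroid markers, by contrast, had means of 6.62 to 7.01 on the day 5 arrays and 8.25 to 9.88 on the day 15 arrays. The mean of 14 granulocyte and myeloid markers was 7.40 to 8.53 in unstimulated Th17 cells on day 5 and 6.49 to 6.76 in Th1 cells. Whether the samples of a group came from different mice is not stated, so the p-values rest on a spread that may be technical. Mitotic transcripts are not a direct count of divisions.

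Promoters were examined for 2 sequences known from this class of genes: CCAAT, bound by NF-Y, and TTTGAA, a form of the cell cycle homology region (CHR) through which the DREAM and MuvB complexes repress and later activate mitotic genes. The RefSeq promoters (build GRCm38.p6; 250 bases before to 50 after each start, both strands searched, no overlap between matches of the 2 motifs) covered 37 of the 44 measured genes, with 39 promoters. CCAAT stood in 29 of the 39 (74.4%), against 37.4% of 32851 promoters of all genes. TTTGAA stood in 30 (76.9%), against 17.9%. Both stood in 26 (66.7%), against 6.95%, and neither stood in those of Birc5, Melk, Ncaph, Nuf2, Nusap1 and Pttg1, genes that also fell with time in unstimulated cells. Ect2 and Prc1 each have 2 promoters that overlap almost wholly. With 1 promoter per gene, 36 of 56 CCAAT matches began within 100 bases before the start and 2 after it, and 10 of 37 TTTGAA matches began within 100 bases before the start and 18 after it. The starts used for Kif2c, Sgo1 and Pttg1 lie 3852, 2016 and 1482 bases inside the annotated gene. Those for Ncapd2 and Aurka lie 514 and 316 bases inside, and the 2 for Ect2 375 and 399. With 250 bases taken before the start, these windows do not cover the 5′ end of the gene.

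The promoters below are printed 5′ to 3′ on the gene's strand, with each match to either motif, on either strand, in capitals. They are those of Cdk1, chr10:69352863-69353162 (minus strand), Ccnb2, chr9:70421505-70421804 (minus strand), Cdc20, chr4:118437294-118437593 (minus strand), Plk1, chr7:122159185-122159484 (plus strand), and Kif11, chr19:37376132-37376431 (plus strand), which hold both motifs, and of Melk, chr4:44300667-44300966 (plus strand), which holds neither in this window. All 6 genes fell with time in unstimulated cells of both types.
Cdk1: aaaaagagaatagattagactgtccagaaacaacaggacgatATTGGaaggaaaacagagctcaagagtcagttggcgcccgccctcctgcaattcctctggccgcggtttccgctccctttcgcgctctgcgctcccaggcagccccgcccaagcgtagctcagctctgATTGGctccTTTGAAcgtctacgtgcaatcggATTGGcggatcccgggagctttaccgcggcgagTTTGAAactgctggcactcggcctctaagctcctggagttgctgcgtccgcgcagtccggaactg
Ccnb2: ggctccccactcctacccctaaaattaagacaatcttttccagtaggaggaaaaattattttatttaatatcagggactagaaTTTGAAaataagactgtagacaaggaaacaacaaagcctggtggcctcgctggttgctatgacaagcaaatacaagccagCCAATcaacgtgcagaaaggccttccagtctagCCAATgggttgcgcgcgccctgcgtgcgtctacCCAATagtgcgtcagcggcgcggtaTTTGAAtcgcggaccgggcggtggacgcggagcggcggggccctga
Cdc20: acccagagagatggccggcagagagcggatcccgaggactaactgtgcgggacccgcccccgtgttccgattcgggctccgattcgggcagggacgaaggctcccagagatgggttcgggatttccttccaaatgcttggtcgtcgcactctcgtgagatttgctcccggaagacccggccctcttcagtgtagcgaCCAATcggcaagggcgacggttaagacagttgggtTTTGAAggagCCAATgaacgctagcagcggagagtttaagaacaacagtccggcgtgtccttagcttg
Plk1: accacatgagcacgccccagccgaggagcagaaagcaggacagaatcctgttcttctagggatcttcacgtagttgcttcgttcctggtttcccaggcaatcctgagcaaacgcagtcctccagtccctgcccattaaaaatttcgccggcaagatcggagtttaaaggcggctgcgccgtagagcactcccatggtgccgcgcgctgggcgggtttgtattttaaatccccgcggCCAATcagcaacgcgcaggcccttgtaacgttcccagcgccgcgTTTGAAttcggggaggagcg
Kif11: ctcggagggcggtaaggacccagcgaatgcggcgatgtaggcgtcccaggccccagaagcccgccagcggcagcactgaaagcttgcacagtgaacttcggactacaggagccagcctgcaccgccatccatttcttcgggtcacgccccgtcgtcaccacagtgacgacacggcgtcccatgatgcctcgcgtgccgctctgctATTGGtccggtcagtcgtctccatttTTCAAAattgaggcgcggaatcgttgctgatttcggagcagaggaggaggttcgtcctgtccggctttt
Melk: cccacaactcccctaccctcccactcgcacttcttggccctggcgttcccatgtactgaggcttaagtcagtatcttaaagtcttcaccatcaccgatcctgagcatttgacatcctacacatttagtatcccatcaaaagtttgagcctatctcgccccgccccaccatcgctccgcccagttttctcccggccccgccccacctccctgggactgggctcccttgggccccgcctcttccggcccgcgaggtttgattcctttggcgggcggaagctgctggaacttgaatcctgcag

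The arrangement differs between these promoters. Cdk1 has a TTTGAA beginning 15 bases and a CCAAT 48 bases before the start, Kif11 has them 19 and 45 bases before it, and Cdc20 has a TTTGAA 18 bases before the start with CCAAT on both sides. In Ccnb2 and Plk1 the TTTGAA nearest the start begins 5 and 31 bases after it. A match is a description of the sequence and not evidence of binding.

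On every array the 44 genes lay in the upper part of the range, with at least 43 of 44 above the array's median over all genes. Their median was 10.92, 10.79 and 10.93 in unstimulated Th1 cells on day 5 and 9.77 and 9.42 on day 15. In unstimulated Th17 cells it was 10.74, 10.57 and 10.51 on day 5 and 10.20, 10.08, 9.83 and 10.19 on day 15. After restimulation the median was 10.22, 10.24 and 10.22 in Th1 cells and 9.95, 10.29 and 10.13 in Th17 cells on day 5. On day 15 the restimulated samples were at 9.16 and 9.10 for Th1 and at 9.51, 9.72, 9.86 and 10.01 for Th17. The lowest medians were thus those of restimulated Th1 cells on day 15, and the highest those of unstimulated Th1 cells on day 5.

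**Figure D1:**
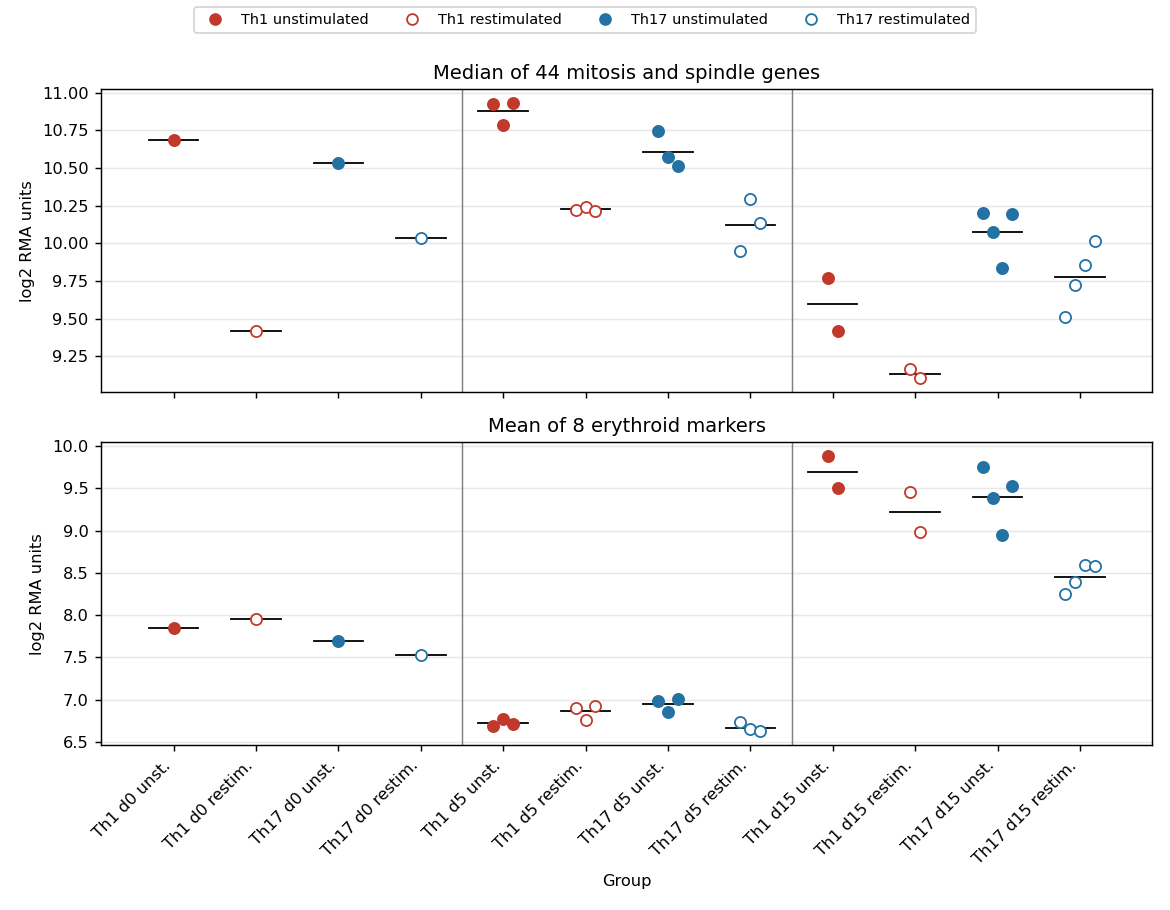
Each point is 1 array (log2 RMA units), in groups by cell type, day and restimulation, with a bar at the group mean; the upper panel gives the median of 44 mitosis and spindle genes and the lower panel the mean of 8 erythroid markers. The mitotic medians fall from day 5 to day 15 in all 4 pairs of groups while the erythroid means rise.

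**Figure D2:**
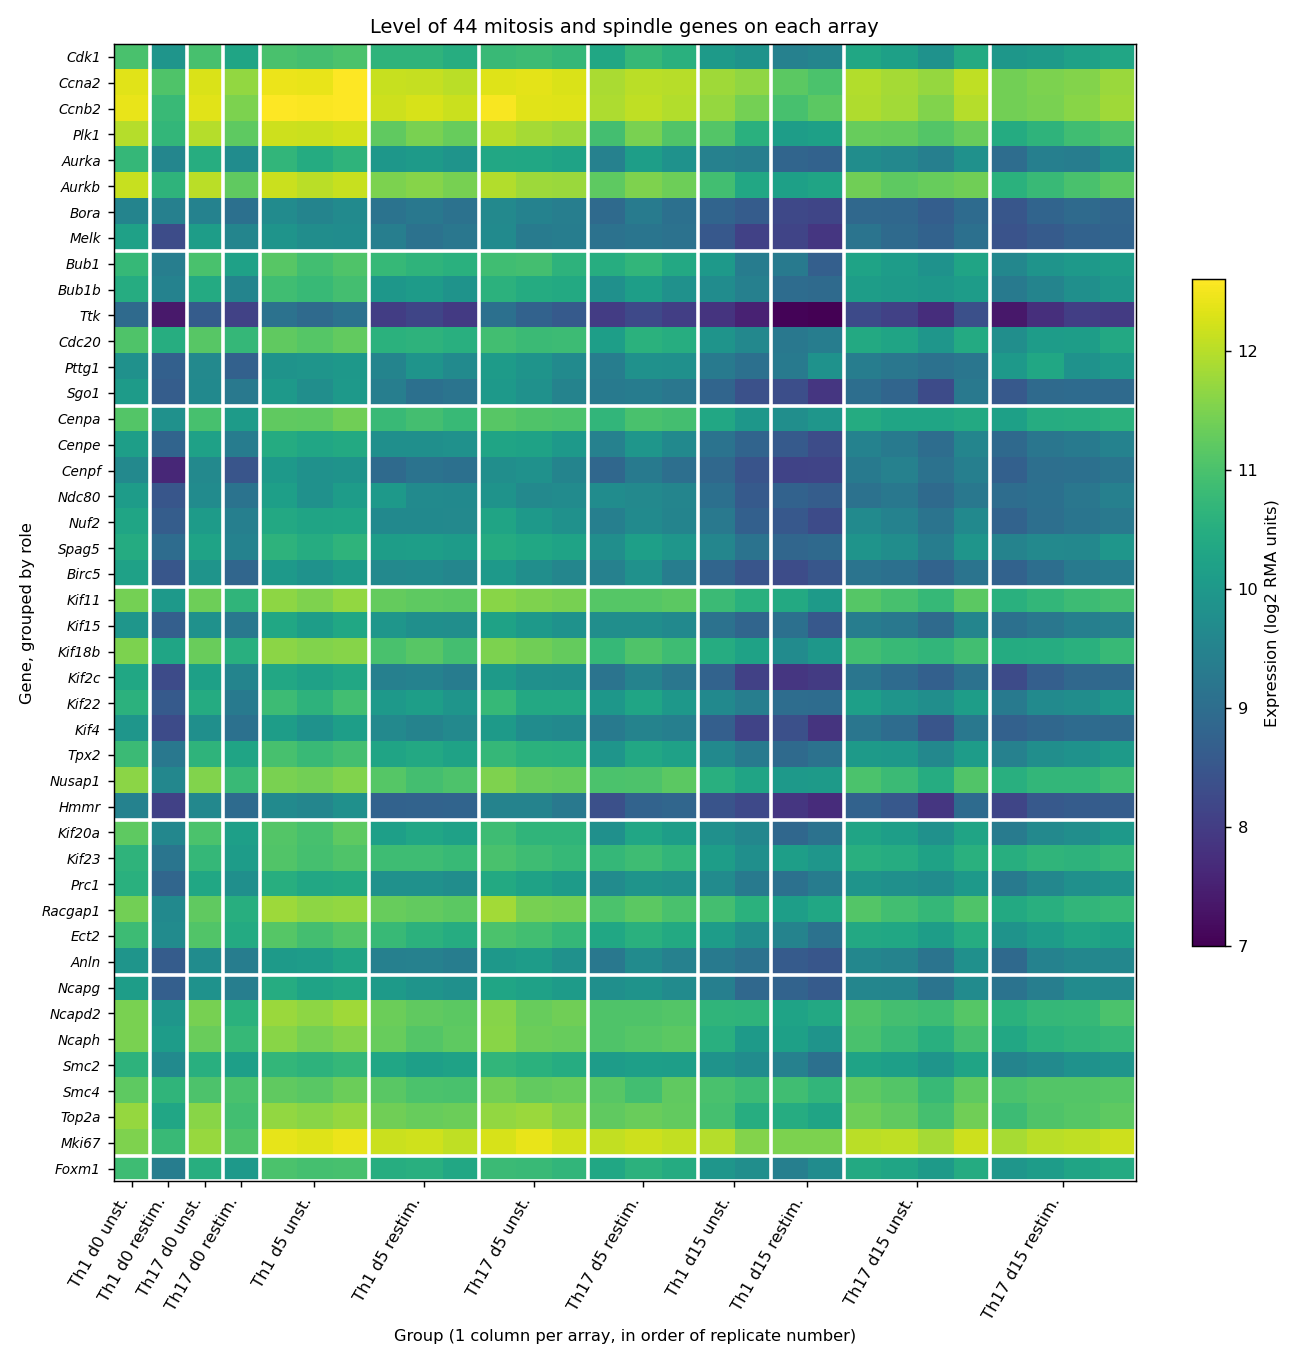
Each row is 1 of the 44 genes, ordered by role, and each column 1 array, coloured by log2 expression. Along each row the lowest value is in restimulated Th1 cells, on day 15 or on day 0.

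The first question is how these genes changed between day 5 and day 15 after transfer. In unstimulated Th1 cells 43 of 44 fell and 0 rose, with a median log2 change of -1.21 against 0.00 over all genes, and 8.72% of all genes fell and 7.33% rose. In unstimulated Th17 cells 40 of 44 fell and 0 rose, with a median of -0.59 against 0.05, and 5.28% of all genes fell and 4.37% rose. All 44 genes were lower on every day 15 array than on every day 5 array in both cell types, which held for 25.6% of all genes in Th1 cells and 11.6% in Th17 cells. Smc4 in Th1 cells, and Anln, Mki67, Prc1 and Smc4 in Th17 cells, were not called.

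The 8 kinases and cyclins all fell in both cell types. Aurkb, the kinase of the chromosomal passenger complex that corrects faulty attachments, read 12.14, 12.03 and 12.12 in Th1 cells on day 5 and 10.90 and 10.37 on day 15. In Th17 cells its day 5 values, 11.95, 11.79 and 11.77, were followed by 11.38, 11.21, 11.30 and 11.39. Aurkb fell by 1.46 (SE 0.15, adjusted p = 1.71e-07) in Th1 cells and by 0.51 (SE 0.12, adjusted p = 0.0083) in Th17 cells. The day 5 samples of the 2 cell types thus lay close together, and the day 15 samples did not. Cdk1 was at 10.98, 10.93 and 11.005 in Th1 cells on day 5 and 10.04 and 9.87 on day 15, and at 10.79, 10.83 and 10.73 against 10.34, 10.18, 9.86 and 10.41 in Th17 cells. It fell by 1.02 (SE 0.14, adjusted p = 1.02e-05) in Th1 cells and by 0.59 (SE 0.11, adjusted p = 0.0017) in Th17 cells, a 2.02-fold and a 1.5-fold decrease. Plk1, which matures centrosomes and builds the spindle, went from 12.18, 12.16 and 12.21 to 11.10 and 10.55 in Th1 cells and from 11.99, 11.85 and 11.75 to 11.30, 11.28, 11.10 and 11.32 in Th17 cells. Melk, a kinase of dividing cells, went from 9.89, 9.74 and 9.72 to 8.53 and 8.09 in Th1 cells and from 9.67, 9.34 and 9.38 to 9.16, 8.94, 8.75 and 9.07 in Th17 cells. It fell by 1.47 (SE 0.14, adjusted p = 1.27e-07) in Th1 cells, where it changed most of the 8, and by 0.48 (SE 0.12, adjusted p = 0.0116) in Th17 cells. Ccna2, cyclin A2, had the smallest change of the 8 in Th1 cells: it fell by 0.74 (SE 0.11, adjusted p = 3.59e-05).

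Among the 6 checkpoint and anaphase genes all fell in unstimulated cells of both types. Bub1, a checkpoint kinase of the kinetochore, read 11.15, 10.91 and 11.05 in Th1 cells on day 5 and 10.000 and 9.35 on day 15, and 10.88, 10.92 and 10.62 against 10.24, 10.10, 9.84 and 10.28 in Th17 cells. Cdc20, the activator of the anaphase-promoting complex, went from 11.23, 11.12 and 11.25 to 9.90 and 9.61 in Th1 cells and from 10.90, 10.81 and 10.84 to 10.40, 10.28, 9.95 and 10.42 in Th17 cells. These genes fell in Th1 cells by 1.36 (SE 0.19, adjusted p = 1.27e-05) and by 1.45 (SE 0.15, adjusted p = 4.57e-07), respectively. Sgo1, which protects cohesion at centromeres, had the largest decrease of any of the 44 in Th17 cells, where it fell by 0.94 (SE 0.18, adjusted p = 0.0011). Its Th17 values were 10.03, 9.84 and 9.51 on day 5 and 9.03, 8.83, 8.29 and 9.25 on day 15, so the spread within day 15 was wide. Pttg1, securin, which holds the cohesin-cleaving enzyme separase inactive, fell by 0.75 (SE 0.16, adjusted p = 0.0023) in Th1 cells and by 0.67 (SE 0.14, adjusted p = 0.0027) in Th17 cells.

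The 7 centromere and kinetochore genes fell in both cell types, with log2 changes of -1.42 (Cenpe) to -1.11 (Cenpa) in Th1 cells and of -0.84 (Cenpe) to -0.40 (Cenpf) in Th17 cells. Cenpe, a kinesin of the kinetochore, read 10.45, 10.32 and 10.40, then 9.14 and 8.80 in Th1 cells, and 10.27, 10.23 and 10.03, then 9.47, 9.31, 9.002 and 9.55 in Th17 cells. Birc5, or survivin, a subunit of the chromosomal passenger complex, went from 10.03, 9.86 and 10.06 to 8.82 and 8.47 in Th1 cells and from 10.02, 9.76 and 9.58 to 9.15, 9.08, 8.78 and 9.16 in Th17 cells. Neither gene's day 5 and day 15 values overlapped in either cell type.

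All 9 spindle motor and microtubule genes fell as well, and they hold the largest change of all. Kif2c, a kinesin that shortens microtubules, was at 10.35, 10.20 and 10.36 in Th1 cells on day 5 and at 8.78 and 8.08 on day 15. The corresponding Th17 values were 10.06, 9.81 and 9.80 against 9.20, 8.96, 8.72 and 9.11. Kif2c fell by 1.87 (SE 0.18, adjusted p = 1.23e-07) in Th1 cells, a 3.66-fold decrease, and by 0.89 (SE 0.15, adjusted p = 4.40e-04) in Th17 cells. Kif4, a chromosome-bound kinesin, read 10.11, 9.86 and 10.15, then 8.70 and 8.12 in Th1 cells, and 10.06, 9.73 and 9.66, then 9.20, 8.98, 8.47 and 9.23 in Th17 cells. It fell by 1.63 (SE 0.19, adjusted p = 2.01e-06) in Th1 cells and by 0.84 (SE 0.16, adjusted p = 0.0014) in Th17 cells. Kif11, the motor that pushes the spindle poles apart, changed less, from 11.64, 11.52 and 11.70 to 10.81 and 10.56 in Th1 cells and from 11.61, 11.52 and 11.46 to 11.12, 10.96, 10.76 and 11.18 in Th17 cells. Hmmr, a spindle-associated protein, was among the 5 largest decreases in Th17 cells, where it fell by 0.89 (SE 0.17, adjusted p = 0.0017), from 9.51, 9.49 and 9.27 to 8.75, 8.54, 7.89 and 8.96.

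The 6 central spindle and cytokinesis genes fell in Th1 cells, and 4 of them (Kif20a, Kif23, Racgap1 and Ect2) in Th17 cells. Kif20a, a kinesin of the central spindle, fell by 1.39 (SE 0.17, adjusted p = 2.29e-06) in Th1 cells and by 0.60 (SE 0.14, adjusted p = 0.0066) in Th17 cells. Anln, the contractile ring scaffold anillin, had Th17 values of 9.98, 10.10 and 9.83 on day 5 and 9.59, 9.500, 9.15 and 9.81 on day 15, a difference of -0.46 with a 95% interval of -0.77 to -0.15 (adjusted p = 0.0525). Of the 7 condensin and chromosome genes, Ncaph, a condensin I subunit, changed most in Th1 cells, where it fell by 1.24 (SE 0.15, adjusted p = 2.05e-06). Top2a, topoisomerase II alpha, which untangles sister chromatids, went from 11.68, 11.61 and 11.71 to 10.96 and 10.49 in Th1 cells and from 11.69, 11.75 and 11.56 to 11.36, 11.24, 10.94 and 11.40 in Th17 cells. Mki67, which encodes the proliferation marker Ki-67 that coats mitotic chromosomes, had the second smallest change in Th1 cells, from 12.39, 12.33 and 12.43 to 11.98 and 11.57. It fell by 0.61 (SE 0.12, adjusted p = 5.68e-04) there, and its Th17 difference was -0.27 with a 95% interval of -0.47 to -0.07 (adjusted p = 0.0864). Smc4, a core subunit shared by both condensins, differed by -0.33 (SE 0.12, adjusted p = 0.0708) in Th1 cells and by -0.25 (SE 0.10, adjusted p = 0.122) in Th17 cells. Foxm1, the factor that drives many G2 and mitotic genes, went from 11.01, 10.94 and 10.98 to 9.93 and 9.76 in Th1 cells and from 10.81, 10.80 and 10.68 to 10.40, 10.29, 10.05 and 10.44 in Th17 cells, and fell by 1.13 (SE 0.13, adjusted p = 1.98e-06) in the former.

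**Figure D3:**
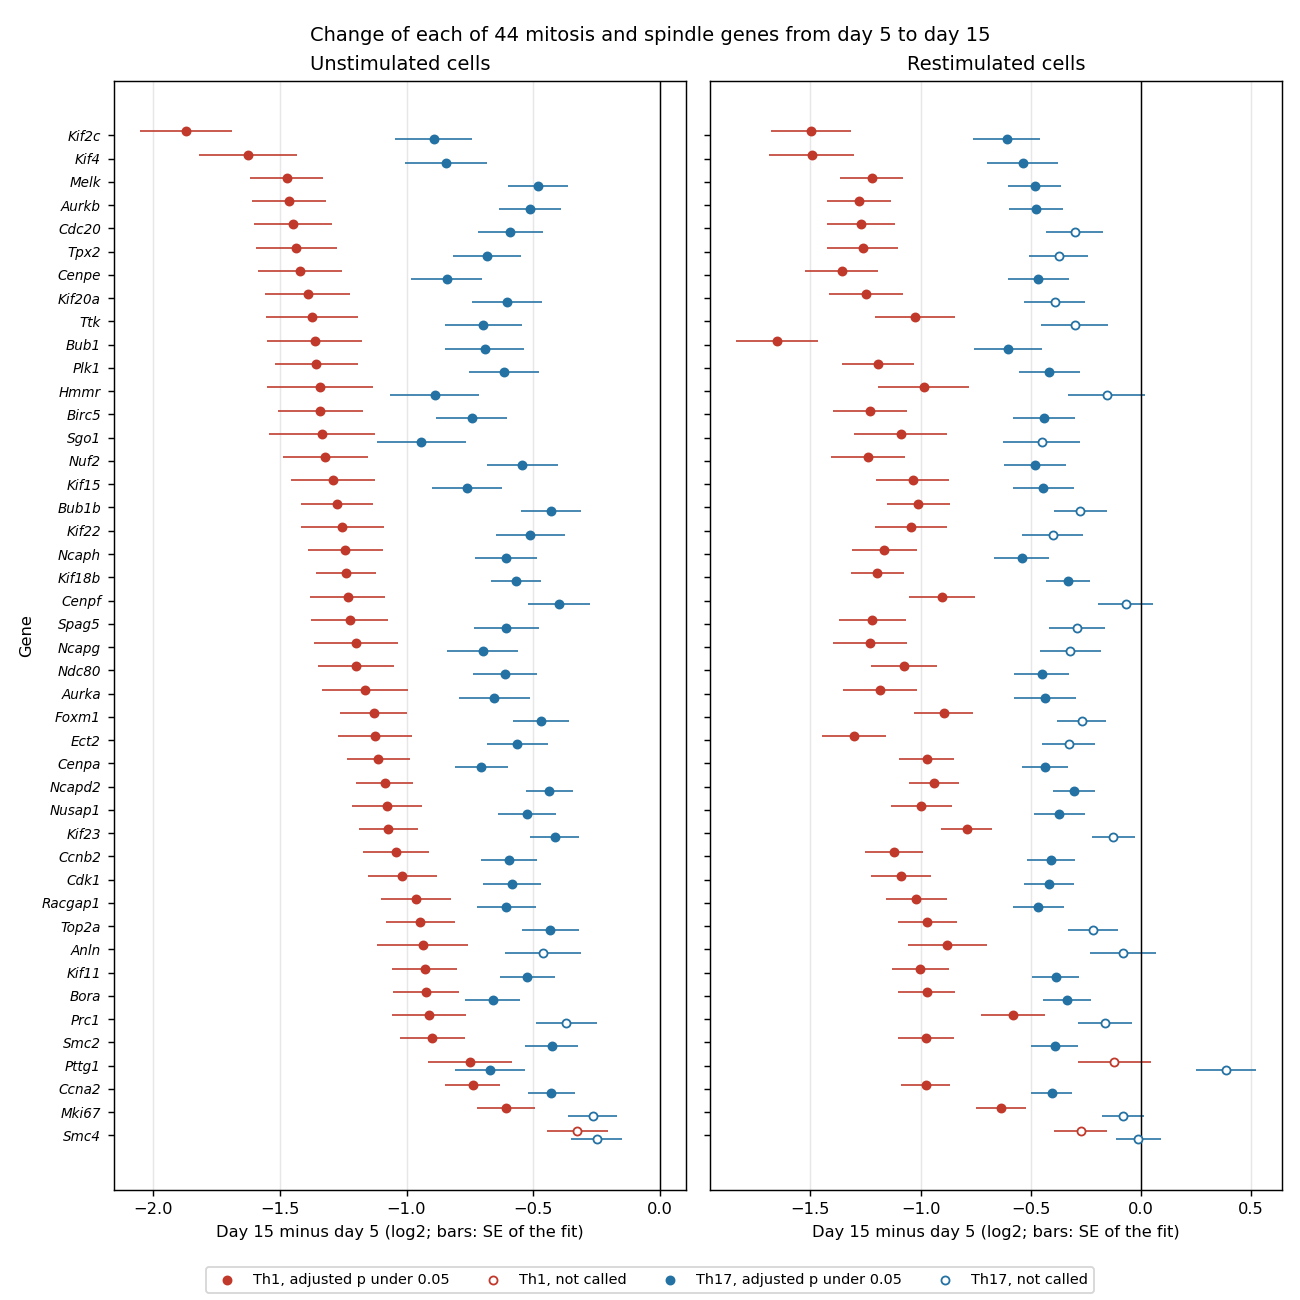
Points give the log2 difference between day 15 and day 5 for each of 44 genes, unstimulated on the left and restimulated on the right, with bars of 1 SE of the fit; filled points were called with limma at an adjusted p under 0.05. Kif2c (-1.87 in unstimulated Th1 cells) is at the top and Smc4 (-0.33) at the bottom, and every Th1 point lies to the left of its Th17 point.

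In restimulated cells the same comparison gave 42 of 44 lower genes in Th1 cells (median -1.06) and 24 of 44 in Th17 cells (median -0.39), with 0 higher in both. Of all genes, 8.64% fell and 7.07% rose in Th1 cells, and 8.42% fell and 5.05% rose in Th17 cells. The 2 days did not overlap for 43 genes in Th1 cells (19.8% of all genes) and for 22 lower genes in Th17 cells (12.3% of all genes). Bub1 changed most in restimulated Th1 cells, from 10.75, 10.64 and 10.54 to 9.29 and 8.69, and fell by 1.65 (SE 0.19, adjusted p = 1.62e-06). In restimulated Th17 cells it went from 10.48, 10.68 and 10.39 to 9.59, 9.90, 10.04 and 10.12 and fell by 0.60 (SE 0.16, adjusted p = 0.0115). Kif2c went from 9.43, 9.49 and 9.34 to 7.88 and 7.97 in restimulated Th1 cells and from 9.16, 9.51 and 9.22 to 8.28, 8.69, 8.88 and 8.91 in Th17 cells. It fell by 1.497 (SE 0.18, adjusted p = 3.89e-06) in the former and by 0.61 (SE 0.15, adjusted p = 0.0091) in the latter. Kif4 read 9.63, 9.51 and 9.65, then 8.36 and 7.84 in restimulated Th1 cells, and 9.30, 9.503 and 9.41, then 8.73, 8.87, 8.95 and 8.93 in Th17 cells. Cenpe and Ect2, the activator of RhoA in cytokinesis, were the next largest in Th1 cells. Cenpe went from 9.78, 9.80 and 9.83 to 8.59 and 8.30 and fell by 1.36 (SE 0.17, adjusted p = 4.01e-06). Ect2 went from 10.77, 10.60 and 10.47 to 9.52 and 9.10 and fell by 1.30 (SE 0.14, adjusted p = 1.28e-06). In Th17 cells Ncaph (11.06, 11.13 and 11.18, then 10.35, 10.58, 10.67 and 10.74) and Melk (9.12, 9.19 and 9.11, then 8.44, 8.61, 8.77 and 8.80) were among the 5 largest, and neither overlapped between the days. The 24 genes lower on day 15 in all 4 time comparisons included all 8 kinases and cyclins, but of the checkpoint and anaphase genes only Bub1. How many of all genes were lower in all 4 is not given here. Pttg1 stood apart: in restimulated Th17 cells it read 9.38, 9.83 and 9.81 on day 5 and 10.04, 10.33, 9.86 and 10.02 on day 15, a difference of 0.39 (SE 0.14, adjusted p = 0.0671), and it was the only one of the 44 above 0 in this comparison. The Th17 count was 7 without Th17 day 5 restimulated sample 2, 11 without Th17 day 5 restimulated sample 3, 11 without Th17 day 15 restimulated sample 1 and 12 without Th17 day 15 restimulated sample 2, and 1 higher and 13 lower after cyclic loess normalization.

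Erythroid markers moved with time in the opposite direction. Of 8 measured of 12 listed, 8 and 7 were higher on day 15 in unstimulated Th1 and Th17 cells, and 7 and 7 in restimulated cells, led by Car1 (carbonic anhydrase 1) with a log2 change of 5.87 (SE 0.23, adjusted p = 5.09e-14) in unstimulated Th1 cells. Of all genes, 7.33%, 4.37%, 7.07% and 5.05% rose in these 4 comparisons. The mean of 4 megakaryocyte and platelet markers also moved with time, from 6.17 to 6.48 on the day 5 arrays to 6.63 to 8.06 on the day 15 arrays, with 4, 3, 3 and 1 of the 4 higher. Its part in the result was not tested. The erythroid list includes Tfrc and Car2, which T cells can express, and erythroid precursors themselves divide. None of the listed markers can be called absent on any array, since detection calls were not used here. With the erythroid mean as a covariate, 43, 35, 42 and 29 of the 44 genes were lower on day 15 in unstimulated Th1, unstimulated Th17, restimulated Th1 and restimulated Th17 cells, with medians of -2.68, -1.78, -2.28 and -1.21. The erythroid means did not overlap between the days, so this fit could not separate them from day. The part of these cells in the measured decrease was not tested.

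The second question is what 2 h of restimulation did. On day 5, 32 of 44 genes fell in Th1 cells (median -0.47) and 24 of 44 in Th17 cells (median -0.42), and 0 rose. Of all genes, 8.96% fell in Th1 cells and 4.08% in Th17 cells. Restimulated samples lay below all unstimulated ones for 41 genes in Th1 cells and 38 in Th17 cells, against 24.8% and 13.4% of all genes. Across the 44 genes, the changes in the 2 cell types, which come from different samples, had a Pearson correlation of 0.89 (Spearman 0.87), given as a description, since the genes share arrays within each cell type. The Th17 count was sensitive to single samples: it was 3 without Th17 day 5 unstimulated sample 1, 13 without Th17 day 5 unstimulated sample 2, 4 without Th17 day 5 restimulated sample 1 and 7 without Th17 day 5 restimulated sample 3, and 0 without both parts of Th17 day 5 sample 1. That sample had the highest myeloid mean of the Th17 day 5 arrays (8.53 unstimulated, 7.99 restimulated), and the count was 7 with the myeloid mean and 6 with the erythroid mean as a covariate.

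Ttk, Hmmr, Plk1 and Kif20a were among the largest decreases on day 5 in either cell type. Ttk, the checkpoint kinase Mps1, read 9.12, 8.93 and 9.12 in unstimulated Th1 cells and 8.01, 8.17 and 7.95 after restimulation, and fell by 1.01 (SE 0.16, adjusted p = 2.60e-04). In Th17 cells it went from 9.08, 8.76 and 8.59 to 7.996, 8.23 and 8.05 and fell by 0.72 (SE 0.16, adjusted p = 0.0077). Plk1 went from 12.18, 12.16 and 12.21 to 11.24, 11.48 and 11.29 in Th1 cells and from 11.99, 11.85 and 11.75 to 10.93, 11.48 and 11.09 in Th17 cells. Every restimulated sample of both genes was below every unstimulated one. Hmmr read 9.67, 9.57 and 9.81 without and 8.76, 8.78 and 8.81 with restimulation in Th1 cells, and 9.51, 9.49 and 9.27 against 8.36, 8.79 and 8.85 in Th17 cells. Kif20a read 11.10, 10.97 and 11.21 against 10.17, 10.32 and 10.20 in Th1 cells, and 10.87, 10.66 and 10.66 against 9.81, 10.30 and 10.12 in Th17 cells. Neither gene's groups overlapped. Bub1b, the checkpoint protein BubR1, went from 10.88, 10.77 and 10.92 to 9.96, 10.06 and 9.87 in Th1 cells, Kif2c from 10.35, 10.20 and 10.36 to 9.43, 9.49 and 9.34 there, and Cenpf, a kinetochore protein, from 9.77, 9.84 and 9.52 to 8.87, 9.29 and 9.04 in Th17 cells. Hmmr fell by 0.90 in Th1 and 0.76 in Th17 cells, Bub1b by 0.90 and 0.56, Kif20a by 0.86 and 0.65, and Cenpf by 0.86 and 0.64, all called. By role, all 8 kinases and cyclins fell in Th1 cells and 6 of 8 in Th17 cells. Of the 7 condensin and chromosome genes 2 fell in Th1 cells and 3 in Th17 cells. Top2a, for example, went from 11.68, 11.61 and 11.71 to 11.38, 11.29 and 11.33 in Th1 cells, a difference of -0.33 (SE 0.12, adjusted p = 0.0735), and Mki67 from 12.39, 12.33 and 12.43 to 12.15, 12.21 and 12.07, a difference of -0.24 (SE 0.10, adjusted p = 0.14).

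On day 15 fewer genes passed. In Th1 cells 16 of 44 fell and 0 rose (median -0.47; 4.63% of all genes fell), led by Kif20a, which fell by 0.72 (SE 0.18, adjusted p = 0.0183) from 9.82 and 9.59 to 8.86 and 9.10. Plk1 went from 11.10 and 10.55 to 10.11 and 10.18 and fell by 0.68 (SE 0.18, adjusted p = 0.0231). Bub1 went from 10.000 and 9.35 to 9.29 and 8.69, Ttk from 7.84 and 7.53 to 7.07 and 6.97 and Anln from 9.30 and 9.11 to 8.60 and 8.500. For these 5 genes, picked by their size of change, both restimulated samples lay below both unstimulated ones. How often this held among all genes is not given here. With 2 samples a group, leaving out 1 array left 1 sample on that side. The list median was then -0.31 without Th1 day 15 unstimulated sample 1. It was -0.45 without Th1 day 15 restimulated sample 1 and -0.43 without Th1 day 15 restimulated sample 2. The count of 16 became 10 after cyclic loess or centring of the arrays on their medians. It was 1 with array weights, 1 with the erythroid mean as a covariate and 0 when the model held just those 2 groups. Calls over all genes, in either direction, were 329, 584 and 42 in these last fits, against 924 lower genes in the main result. The list median stayed at -0.47 with array weights and with just those 2 groups, and was -0.21 with the erythroid mean. In Th17 cells 9 of 44 fell (median -0.19; 11.1% of all genes fell) and 1, Pttg1, rose (6.49% of all genes rose). The 9 were Plk1, Kif20a, Aurkb, Nuf2, Smc2, Bub1b, Racgap1, Ccna2 and Melk. Plk1 changed most of them, from 11.30, 11.28, 11.10 and 11.32 to 10.45, 10.65, 10.88 and 11.03, and fell by 0.50 (SE 0.13, adjusted p = 0.0082). Aurkb went from 11.38, 11.21, 11.30 and 11.39 to 10.59, 10.80, 10.98 and 11.18 and fell by 0.44 (SE 0.11, adjusted p = 0.0088), with no overlap between its groups. Kif20a read 10.28, 10.14, 9.82 and 10.26 without and 9.33, 9.64, 9.77 and 10.01 with restimulation, and Nuf2, a subunit of the Ndc80 complex, 9.68, 9.49, 9.14 and 9.66 against 8.77, 9.04, 9.17 and 9.27. The groups of both overlapped. Smc2, the other core condensin subunit, went from 10.25, 10.15, 9.93 and 10.27 to 9.52, 9.68, 9.86 and 9.93 without overlap. The 6 genes lower after restimulation in all 4 comparisons were Bub1b, Ccna2, Kif20a, Plk1, Racgap1 and Smc2. How many of all genes were lower in all 4 is not given here. In the Th17 day 15 comparison all 6 turned above 0 with the erythroid mean, taken without Tfrc and Car2, as a covariate.

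The Th17 day 15 result moved with the erythroid markers, of which 7 of 8 also fell after restimulation (means of 8.94 to 9.75 unstimulated and 8.25 to 8.59 restimulated). With the erythroid mean as a covariate, 7 genes were higher and 0 lower, and the list median became 0.30, so the direction turned. That fit called 3008 of all genes in either direction, so calls were not particular to this list. The erythroid means did not overlap between the states, so this fit could not separate them from restimulation. The part of the erythroid signal in the main result was not tested. Counted in either direction, 10 genes were called with all samples, 6 without Th17 day 15 unstimulated sample 1, 17 without Th17 day 15 unstimulated sample 3, 6 without Th17 day 15 unstimulated sample 4, 5 without Th17 day 15 restimulated sample 1, 5 without Th17 day 15 restimulated sample 2 and 17 without Th17 day 15 restimulated sample 4. Array weights gave 1 higher and 17 lower.

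Pttg1 was the only one of the 44 genes called higher after restimulation. In unstimulated Th17 cells on day 15 it read 9.37, 9.22, 9.09 and 9.20 and after restimulation 10.04, 10.33, 9.86 and 10.02, so every restimulated sample was above every unstimulated one. The gene was higher by 0.84 (SE 0.13, adjusted p = 5.75e-05), a 1.79-fold increase. With the erythroid mean as a covariate the difference was 0.72 with an adjusted p of 0.0529, and without Tfrc and Car2 in that mean it was 0.80 with an adjusted p of 0.0707, so the call was lost under both. In Th1 cells on day 15 the values were 9.29 and 9.06 without and 9.31 and 9.86 with restimulation, a difference of 0.41 (SE 0.18, adjusted p = 0.197). On day 5 the differences were below 0, -0.22 (SE 0.15, adjusted p = 0.411) in Th1 cells and -0.21 (SE 0.15, adjusted p = 0.444) in Th17 cells. The difference between the cell types in the day 15 change was 0.43 (SE 0.22, adjusted p = 0.795), and the day 5 and day 15 changes were not tested against each other. Kif23, a subunit of the centralspindlin complex of the midzone, was the next highest on day 15, when 9 of 44 genes in Th17 cells and 2 in Th1 cells lay above 0. It went from 10.12 and 9.78 to 10.13 and 9.94 in Th1 cells and from 10.54, 10.46, 10.24 and 10.56 to 10.51, 10.67, 10.63 and 10.73 in Th17 cells, differences of 0.09 (SE 0.13, adjusted p = 0.805) in Th1 and 0.18 (SE 0.09, adjusted p = 0.16) in Th17 cells. It was not called after restimulation in any comparison, nor were Birc5, Kif15, Kif4, Mki67, Ncapg, Ncaph, Ndc80 and Smc4.

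**Figure D4:**
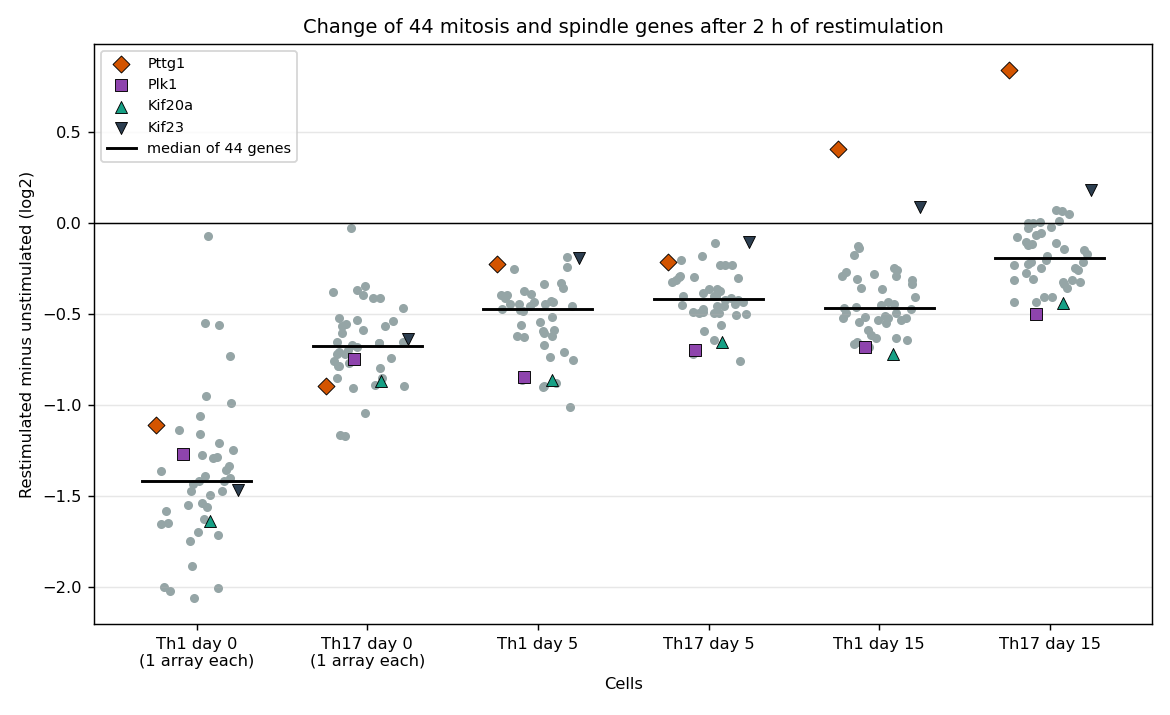
Each point is the log2 difference of 1 of 44 genes between restimulated and unstimulated cells (group means; 1 array each on day 0), with a bar at the median. The medians run from -1.42 (Th1 day 0) to -0.19 (Th17 day 15), and Pttg1, the diamond, lies near the other genes on days 0 and 5 and above them on day 15.

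The third question is whether Th1 and Th17 cells differed. On day 5 no gene passed the adjusted threshold: 0 of 44 genes were called in unstimulated cells (3.63% of all genes) and 0 in restimulated cells (3.98% of all genes). At an unadjusted p under 0.05, 8 unstimulated genes and 0 restimulated genes passed in limma. How many of all genes passed at that unadjusted threshold is not given here, so these counts have no base to be read against. The unstimulated differences ran from -0.41 (Kif2c, 95% interval -0.75 to -0.08) to 0.08 (Smc4, -0.15 to 0.30), with 43 of 44 below 0 and a median of -0.21. With array weights 10 genes were lower in Th17 cells on day 5, with the erythroid covariate 8 and with the replicate block 5, so the lack of calls rested on the setting.

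On day 15 all 44 genes were above 0 in both states. They share the same 2 Th1 arrays in each state, and the share of all genes above 0 is not given here. In unstimulated cells 9 of 44 were higher in Th17 cells and 0 lower (median 0.39; 1.88% of all genes were higher). They were Aurkb, Melk, Cenpf, Ncaph, Top2a, Kif23, Kif18b, Bub1b and Foxm1. Aurkb, at 10.90 and 10.37 in Th1 cells and 11.38, 11.21, 11.30 and 11.39 in Th17 cells, was higher by 0.69 (SE 0.14, adjusted p = 0.0033). Cenpf read 8.89 and 8.46 against 9.28, 9.45, 9.10 and 9.41 and was higher by 0.64 (SE 0.14, adjusted p = 0.0078). Melk read 8.53 and 8.09 against 9.16, 8.94, 8.75 and 9.07, and like Aurkb and Cenpf it did not overlap between the cell types. Ncaph, at 10.53 and 10.06 against 10.99, 10.79, 10.53 and 10.93, and Top2a, at 10.96 and 10.49 against 11.36, 11.24, 10.94 and 11.40, did overlap. The 2 Th1 samples of Aurkb lay further apart than the 4 Th17 samples. This count was 0 without Th1 day 15 unstimulated sample 2, 5 without Th17 day 15 unstimulated sample 1, 18 without Th17 day 15 unstimulated sample 3 and 5 without Th17 day 15 unstimulated sample 4. It was 27 with array weights, 27 with the erythroid mean, 18 with the replicate block, 17 after cyclic loess, 5 after centring, 3 with only the compared groups and 1 with the myeloid mean as a covariate. The myeloid mean was 7.21 to 8.03 in these Th17 samples and 6.62 and 6.66 in the Th1 samples. These did not overlap, so the fit with the myeloid mean could not separate it from cell type. The mean of 5 natural killer cell markers was 6.49 to 6.72 against 7.47 and 7.72, with 4 of the 5 lower in Th17 cells (2.28% of all genes were lower), and its part in the result was not tested.

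In restimulated cells on day 15, 39 of 44 genes were higher in Th17 cells and 0 lower (median 0.66; 3.45% of all genes were higher). For 42 genes every Th17 sample was above both Th1 samples, against 8.08% of all genes. Bub1 read 9.29 and 8.69 in Th1 cells and 9.59, 9.90, 10.04 and 10.12 in Th17 cells and was higher by 0.92 (SE 0.18, adjusted p = 0.0019). Cdk1 was at 9.46 and 9.55 against 9.97, 10.05, 10.20 and 10.31 and was higher by 0.62 (SE 0.13, adjusted p = 0.0037). Mki67 read 11.51 and 11.51 against 11.86, 12.03, 12.07 and 12.18 and was higher by 0.53 (SE 0.11, adjusted p = 0.0036). Neither Cdk1, Bub1 nor Mki67 overlapped between the cell types. Cenpf read 8.14 and 8.15 against 8.72, 9.05, 9.06 and 9.17, and Anln 8.60 and 8.500 against 8.91, 9.47, 9.59 and 9.60. Ect2 read 9.52 and 9.10 against 9.87, 10.09, 10.27 and 10.18, and Spag5, or astrin, 8.85 and 8.92 against 9.51, 9.63, 9.62 and 9.95. None of these overlapped. Cenpf, Anln, Ect2 and Spag5 followed Bub1 in size with 0.86, 0.84, 0.79 and 0.79. Kif15, Prc1, Pttg1, Racgap1 and Smc4 were not called. The erythroid markers ran the other way here, 7 of 8 being lower in restimulated Th17 cells than in Th1 cells on day 15 (means of 8.25 to 8.59 and of 8.98 and 9.46). Of all genes, 2.98% were lower. With the erythroid mean as a covariate 43 genes were higher. Those means did not overlap between the cell types, so the fit could not separate them from cell type. Other marker means also differed without overlap between these Th1 and Th17 samples, at 6.97 and 7.35 against 6.38 to 6.47 for natural killer cells (1 of 5 lower), 6.56 and 6.78 against 6.96 to 7.61 for myeloid cells (1 of 14 higher and 1 lower), 7.60 and 7.62 against 6.99 to 7.39 for dendritic cells (3 of 8 lower) and 7.19 and 7.56 against 6.63 to 6.83 for megakaryocytes and platelets (2 of 4 lower). With the myeloid mean as a covariate 28 genes were higher, but this fit could not separate that mean from cell type either. The part of the other 3 lists was not tested. The count was 25 without Th1 day 15 restimulated sample 1, 11 when the model held just those 2 groups and 12 with array weights.

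The difference between the time courses was tested directly as an interaction. The decrease from day 5 to day 15 was smaller in Th17 than in Th1 cells for 9 genes in unstimulated cells (0.577% of all genes had an interaction above 0 that passed) and for 14 in restimulated cells (0.431% of all genes), and larger for 0. The interaction was above 0 for 44 of 44 genes in both states, with medians of 0.58 and 0.73. Melk at 0.99 (SE 0.19, adjusted p = 0.0092), Kif2c at 0.98 (SE 0.24, adjusted p = 0.0411) and Aurkb at 0.95 (SE 0.19, adjusted p = 0.0129) had the largest values in unstimulated cells. In restimulated cells these were Bub1 at 1.05 (SE 0.24, adjusted p = 0.0353), Ect2 at 0.98 (SE 0.19, adjusted p = 0.0115) and Cdc20 at 0.97 (SE 0.20, adjusted p = 0.0185). Aurkb, Cdc20, Cenpf, Kif18b, Kif23 and Ncapd2 passed in both, and how many of all genes did so is not given here. The counts were 34 and 0 with array weights and 4 and 5 with the replicate block, and the restimulated count was 3 with only the compared groups. Both counts moved by over 1.5 times with most single arrays. The unstimulated count was 2 without Th1 day 5 unstimulated sample 1, 5 without Th1 day 5 unstimulated sample 2, 2 without Th1 day 5 unstimulated sample 3, 3 without Th17 day 5 unstimulated sample 2, 2 without Th17 day 5 unstimulated sample 3, 0 without Th1 day 15 unstimulated sample 2, 4 without Th17 day 15 unstimulated sample 1, 4 without Th17 day 15 unstimulated sample 2, 17 without Th17 day 15 unstimulated sample 3 and 4 without Th17 day 15 unstimulated sample 4. The restimulated count was 5 without Th1 day 5 restimulated sample 1, 2 without Th1 day 5 restimulated sample 2, 4 without Th1 day 5 restimulated sample 3, 2 without Th17 day 5 restimulated sample 1, 23 without Th17 day 5 restimulated sample 2, 3 without Th17 day 5 restimulated sample 3, 9 without Th1 day 15 restimulated sample 1, 34 without Th17 day 15 restimulated sample 1, 4 without Th17 day 15 restimulated sample 2, 4 without Th17 day 15 restimulated sample 3 and 4 without Th17 day 15 restimulated sample 4. The effect of restimulation was not called as different between the cell types for any of the 44 genes on day 5 (0.0201% of all genes passed) or on day 15 (0% of all genes). At an unadjusted p under 0.05, limma gave 0 and 4 of the 44 genes. The share of all genes at that unadjusted threshold is not given here, so these 2 counts have no base to be read against.

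**Figure D5:**
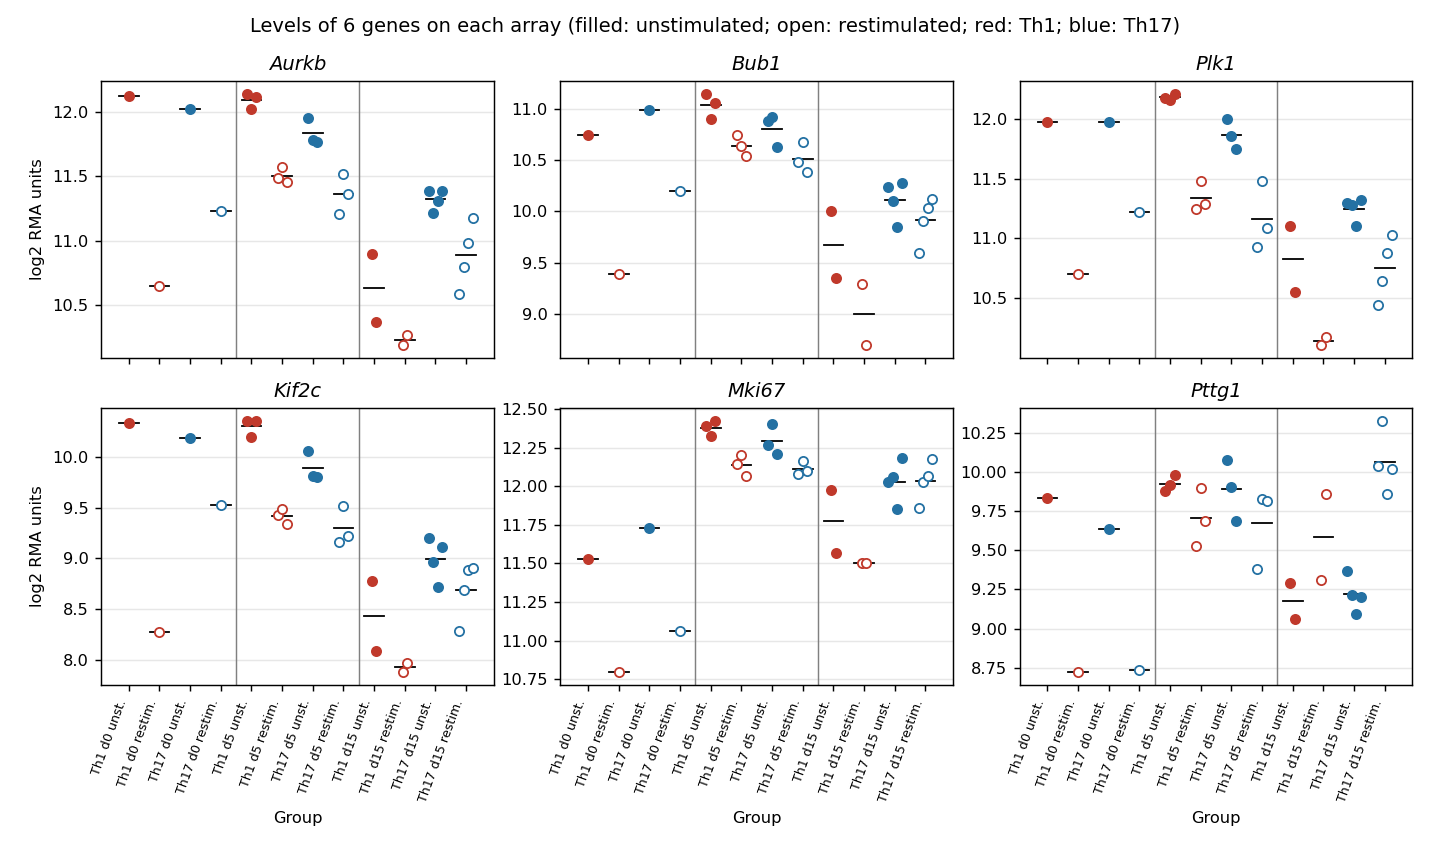
Each point is 1 array, with a bar at the group mean, for Aurkb, Bub1, Plk1, Kif2c, Mki67 and Pttg1 (log2 RMA units; the axes differ between panels). Aurkb stands at 12.03 to 12.14 in unstimulated Th1 cells on day 5 and at 10.37 to 10.90 on day 15, and Pttg1 rises above its unstimulated level in restimulated Th17 cells on day 15.

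Day 0 gives the cultured cells before transfer, with 1 array a group and therefore no test. Without restimulation the medians were 10.68 in Th1 and 10.53 in Th17 cells, near those of day 5. The day 0 arrays stood apart in other markers, and the part of these in the comparisons with day 0 was not tested. Without restimulation the megakaryocyte and platelet mean was 10.43 in Th1 and 10.92 in Th17 cells, against 6.17 to 6.48 on day 5. The mean of 8 dendritic cell and MHC class II markers was 8.41 and 8.92, against 7.18 to 7.40 on unstimulated day 5 arrays, and the myeloid mean was 6.83 and 9.37. The day 5 mean minus the day 0 value had a median of 0.12 over the 44 genes in Th1 and 0.04 in Th17 cells. Mki67 was 0.86 and 0.56 higher on day 5, the largest difference in both cell types, and Melk had the lowest differences, -0.41 and -0.65. After restimulation all 44 genes read lower in both cell types, with medians of -1.42 in Th1 and -0.68 in Th17 cells. In Th1 cells 38 of 44 were over 2-fold lower, as were 5.72% of all genes, and in Th17 cells 3 of 44, as were 0.757% of all genes. Kif2c read 10.34 without and 8.28 with restimulation in Th1 cells, and 10.18 and 9.53 in Th17 cells. Pttg1 was among the lower genes on day 0, at 9.83 and 8.72 in Th1 and 9.64 and 8.74 in Th17 cells.

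Other cell cycle lists give the setting. Of 68 further mitotic genes 64 fell with time in unstimulated Th1 cells and 51 in Th17 cells, with 0 higher in both, against 8.72% and 5.28% of all genes that fell. Cep55, which recruits the abscission machinery, had the largest change in Th1 cells at -1.85 (SE 0.15, adjusted p = 4.96e-09), and Depdc1a in Th17 cells at -1.24 (SE 0.21, adjusted p = 3.37e-04). Of 29 DNA replication genes 28 fell in unstimulated Th1 cells and 14 in Th17 cells, among them Gins1, a subunit of the replicative helicase (-1.34 and -0.65), and Prim1, a primase subunit (-1.32 and -0.58). Among genes that are needed in mitosis but are not made only then, 4 and 2 of 13 anaphase-promoting complex genes fell, and of 9 cohesin genes 2 fell and 1 rose in Th1 cells and 1 fell in Th17 cells. The same shares of all genes apply to these lists, and 7.33% of all genes rose in Th1 cells. Lists were not tested against each other.

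Genes of G1 and of quiescence split in unstimulated Th1 cells, where 6 of 25 rose and 11 fell with time, against 7.33% and 8.72% of all genes. The growth-restraining genes Btg1 and Btg2 rose by 0.92 (SE 0.11, adjusted p = 2.46e-06) and 0.75 (SE 0.14, adjusted p = 3.32e-04), while E2f8 and E2f7, repressors made in S phase, fell by 1.28 (SE 0.14, adjusted p = 9.18e-07) and 1.24 (SE 0.11, adjusted p = 5.65e-08). In Th17 cells 1 rose and 6 fell, against 4.37% and 5.28% of all genes. After restimulation on day 5 the largest increases in this list were those of Myc and Gadd45b, an activation-induced stress gene, in both cell types: Myc rose by 1.27 (SE 0.28, adjusted p = 0.0035) in Th1 and 1.06 (SE 0.28, adjusted p = 0.0196) in Th17 cells, and Gadd45b by 1.18 and 1.48. Klf2, a factor of resting T cells, fell by 1.01 and 0.63, and E2f2, an activating E2F factor, by 0.81 and 0.60, all called.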

How the data were processed

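The authors deposited log2 RMA values of 28 Affymetrix mouse arrays, made in Expression Console per the submitters' processing notes; versions and which arrays were normalised together were not given in the sources used here. Background correction, quantile normalization and summarization are the steps of RMA. Array medians ran from 6.77 to 7.09. Of 35556 probe sets, 21789 carried 1 symbol, 1621 several and 12146 none; the highest-mean probe set per gene left 19938 genes.

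The 24 arrays after transfer were fitted with group means (8 groups, 16 residual degrees of freedom) with limma 3.58.1 in R 4.3.3 (lmFit, eBayes), with Benjamini-Hochberg adjustment over all genes, for 12 comparisons and 4 interactions. Groups of 2 arrays thus borrow the spread of the others. Day 0 arrays entered no test. The functions were tested on simulated data. Alternatives changed the samples fitted, the filter, the normalization, the probe set rule, the variance model and the covariates, and left out each array in turn.

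All listed genes were counted. The rule for naming took the 5 called genes with the largest change each way per comparison, genes that went against the majority and a set list (Cdk1, Ccnb1, Aurkb, Plk1, Bub1, Cdc20, Kif11, Top2a, Mki67, Foxm1, Birc5); of other lists, up to 4 called genes with the largest change. Not every gene of the set list is given by sample in every comparison. The genes and lists were chosen with earlier results of these data known. Same-numbered samples deviated together (correlations over 0.1 in all 3 pairs, 9969 genes) for restimulated against unstimulated cells on day 5 (0.16 to 0.21 in Th1, 0.39 to 0.48 in Th17 cells). The labels say that samples were divided there, as they were on day 15 (0.12 in Th1, -0.16 to 0.21 in Th17 cells). They also did so for Th17 against Th1 restimulated cells on day 5 (0.21 to 0.48). Th1 cells of day 15 against day 5, with 2 pairs, were at 0.21 and 0.29 unstimulated and 0.38 and 0.65 restimulated. Th17 cells of the 2 days were at -0.15 to 0.20 and -0.21 to 0.18. Th17 against Th1 was at -0.13 to 0.07 unstimulated on day 5. On day 15 it was at -0.13 and 0.30 unstimulated and 0.07 and 0.65 restimulated.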

Additional observations from a re-analysis of the deposited data

Results flagged for a closer look

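The test of the difference between the time courses of Th1 and Th17 cells passed for 9 of the 44 genes in unstimulated cells and 14 in restimulated cells. With array weights these were 34 and 0, and with the replicate block 4 and 5. Leaving out 1 array in turn moved the first count by over 1.5 times for 10 of 12 arrays (lowest 0, highest 17) and the second for 11 of 12 (lowest 2, highest 34). The second was 2 without both parts of Th17 day 5 sample 1.

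Sgo1 in restimulated Th17 cells on day 15 read 8.56 in sample 1 and 8.93 to 8.96 in the other samples, a gap large for its group. It was the only such value of 108 tested in groups of 4, and chance alone flags about 1 in 20.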

How the results depend on the processing

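The decrease with time kept its direction in every alternative run in both cell types and states, except for 1 higher gene in restimulated Th17 cells after cyclic loess, with the replicate block and when only genes above the median were tested. Counts by setting follow, as genes called of 44. Leaving out 1 array gave 41 to 43, 31 to 43, 41 to 42 and 7 to 30 for time (unstimulated Th1 and Th17, restimulated Th1 and Th17), 22 to 31, 3 to 22, 0 to 11 and 5 to 17 for restimulation (Th1 and Th17 on day 5, then day 15), 0 to 0, 0 to 18, 0 to 0 and 25 to 42 for cell type (day 5 and day 15 unstimulated, day 5 and day 15 restimulated), and 0 to 17 and 2 to 34 for the interactions of cell type with day.

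With array weights the counts were 1 (Th1 restimulation, day 15), 18 (Th17 restimulation, day 15), 10 (cell type, day 5 unstimulated), 27 and 12 (cell type, day 15 unstimulated and restimulated), and 34 and 0 (interactions with day). With only the compared groups they were 0, 4, 3, 3 and 11 in the same order, and 3 for the restimulated interaction. Calls over all genes with array weights were, in order, 329, 5016, 2159, 1581, 337, 1319 and 26. With only the compared groups they were 42, 2204, 1081, 652, 394 and 70. Cyclic loess gave 14 (Th17 time, restimulated), 10 (Th1 restimulation, day 15), 1 and 17 (cell type, unstimulated, day 5 and day 15) and 30 (restimulated interaction). Its calls over all genes were 3016, 1591, 846, 1047 and 334. Centring gave 10 (Th1 restimulation, day 15) and 5 (cell type, day 15 unstimulated), and testing only genes above the median gave 24 for the restimulated interaction, where fewer genes were tested. Calls over all tested genes were 1476 and 903 after centring, and 273 of 9969 with that filter. The myeloid mean as a covariate gave 7 (Th17 restimulation, day 5) and 1 (cell type, day 15 unstimulated), with 1012 and 469 calls over all genes. On day 15 the myeloid means did not overlap between the cell types, so the fit could not separate them from cell type. Without both parts of Th17 day 5 sample 1 the counts were 0 (Th17 restimulation, day 5) and 2 (restimulated interaction), with 295 and 91 calls over all genes. For these the cause was not tested.

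The erythroid mean as a covariate, and in brackets the same without Tfrc and Car2, gave 6 (5) for Th17 restimulation on day 5, 1 (0) for Th1 on day 15, 8 (10) and 27 (32) for cell type unstimulated on day 5 and day 15, and 32 (37) and 40 (41) for the interactions. The calls over all genes were, in that order, 1162 (881), 584 (327), 875 (911), 923 (861), 528 (525) and 457 (505). For Th17 restimulation on day 15 it turned the direction, with 7 (7) genes higher and 0 lower. Calls over all genes, in either direction, were 3008 (1407) there. The log2 change became 0.0019 (0.0728) for Ccna2, 0.30 (0.35) for Melk, 0.30 (0.42) for Nuf2, 0.0330 (0.12) for Racgap1 and 0.12 (0.18) for Smc2, and under the second covariate alone 0.0479 for Plk1, 0.0551 for Bub1b and 0.13 for Kif20a. The second covariate was chosen after seeing the data, and the cause was not tested. Both erythroid means differed without overlap between the groups compared for restimulation here, and for cell type unstimulated on day 5. There the fit could not separate them from the comparison itself. The same held for the comparisons of day 15 with day 5.

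The replicate block gave 33 and 19 genes for restimulation on day 5 in Th1 and Th17 cells and 0 for cell type in restimulated cells on day 5, and 11 and 10 for restimulation on day 15, where samples were divided too. Elsewhere the labels link samples only by number, though same-numbered Th1 samples of the different days deviated together. There the block gave 5 and 18 (cell type, unstimulated, day 5 and day 15) and 4 and 5 (interactions), with 1104, 990, 144 and 64 calls over all genes. It moved no other count by over 1.5 times. Precision is limited by the 2 Th1 arrays per group on day 15.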
